A study of Mus musculus with 12 samples.

Results

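Hepatocytes secrete most of the proteins of blood clotting and of complement, and the 37 genes described here encode 37 of these proteins or their chains. They were the rows of the deposited count table whose symbol was on a list of names. The rule reads no measured value, but the names were chosen with earlier results of these data known. The members are 37 of 55421 listed genes. Of these, 37 of 37 passed the filter on low counts, as did 14076 of all genes. They comprise 8 clotting factors, 3 fibrinogen chains, 2 members of the contact system, 4 anticoagulants, 3 members of fibrinolysis, 4 components of complement activation, 4 of its lectin pathway, 5 of its terminal complex, 3 regulators, and fetuin-A.

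The livers came from adult male C57BL/6 mice of 2 strains, Fra1hep and Fra2hep, with 3 controls and 3 mutants in each. Fra1hep mutants express a transgene for Fra-1 and Fra2hep mutants one for Fra-2, both subunits of the transcription factor AP-1. Doxycycline keeps the transgene off, and it was withdrawn at 3 weeks of age from mutants and from their littermate controls alike, so all 12 mice had been given and then taken off the drug. All 12 titles read 2 months without saying from when. The treatment label of the 3 Fra2hep mutants reads 9 months and that of their controls 2. An effect of age in the Fra2hep comparison cannot be told apart from an effect of the transgene. The same limit holds for the mean and for the difference of both strains' mutant effects, since each contains the Fra2hep comparison. The labels used here name neither the promoter that drives the transgene nor the alleles of the controls, and they call the tissue mostly hepatocytes.

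Clotting runs as a cascade in which inactive proteases cut and activate each other until thrombin turns fibrinogen into fibrin. Antithrombin and the protein C system hold it in check, and plasmin dissolves the clot. Complement is started by antibody, by lectins that bind sugars on microbes, or by slow turnover of C3, and ends in a pore built from C5b, C6, C7, C8 and C9 in the target membrane. In liver the promoters of many of these genes are known to be bound by hepatocyte factors of the HNF1, HNF4 and C/EBP families.

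Libraries held 16834041 to 20464807 counts, and levels are given as CPM, the count scaled to a common library size with TMM factors. Fosl1, which encodes Fra-1, stood at 9.41, 10.2 and 12.8 CPM in Fra1hep mutants and at 0, 0 and 0.0538 CPM in their controls. Fosl2, which encodes Fra-2, stood at 398, 421 and 421 CPM in Fra2hep mutants and at 12.2, 48.1 and 16 CPM in their controls. Each mutant group thus had far more of the transcript named in its label than its controls. Among hepatocyte markers 5 of 6 were found in the table, and their summed level was 87044 to 121688 CPM in Fra1hep controls, 51128 to 103021 in Fra1hep mutants, 99768 to 139195 in Fra2hep controls and 55461 to 69395 in Fra2hep mutants. The Fra2hep groups did not overlap in this sum, and the Fra1hep groups did. Albumin was most of it, at 3.54% to 9.75% of the counts of a library. The 5 markers did not go one way: in the mean of both strains' mutant effects Apoa1 was lower (log2 fold change -1.02 ± 0.23, adjusted p = 0.0219 by edgeR) and Apob higher (0.80 ± 0.16, adjusted p = 0.0117), while Alb (-0.73), Ttr (-0.61) and Serpina1e (-2.83) did not pass edgeR's test. DESeq2 called Serpina1e lower in Fra1hep and in the mean. Alb was close to the threshold in the mean (adjusted p = 0.0549 by edgeR). In 14 of 17 alternative fits by edgeR or DESeq2 its call was the same, with adjusted p from 0.00324 to 0.122. Bulk RNA cannot tell fewer hepatocytes from less of these RNAs per hepatocyte.

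Markers of 9 other liver and blood cell types, 6 for each, summed to at most 426 CPM in a library. The sum of the stellate cell markers was 186 to 232 CPM in Fra1hep controls and 298 to 359 in Fra1hep mutants, without overlap, with 1 of 6 (Dcn) called higher by edgeR. For recruited macrophages it was 30.2 to 38 CPM in these controls and 39.5 to 121 in the mutants, and for erythroid cells 288 to 394 and 156 to 244. Both were also without overlap, with 0 of 6 called in each list, beside 3.84% of all genes called in Fra1hep. In Fra2hep these 3 sums overlapped, at 267 to 305 against 202 to 280 CPM for stellate, 27.7 to 44.7 against 34.6 to 55.4 for macrophage and 208 to 374 against 185 to 267 for erythroid markers. The platelet or megakaryocyte sum did not overlap in Fra2hep, at 5.88 to 6.81 CPM in controls and 4.79 to 5.76 in mutants, and did in Fra1hep, at 5.09 to 6.58 and 5.47 to 6.5. The sums for cholangiocytes, Kupffer cells, sinusoidal endothelium, neutrophils and lymphocytes overlapped between mutants and controls in both strains. Among the markers found in the table only the platelet marker Gp1bb was at 0 in the 12 libraries. The part of these markers in the results was not tested.

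The 37 genes together took an overlapping part of the RNA in each strain's groups. Their summed share of counts was 6.93%, 6.14% and 6.36% in Fra1hep controls and 5.74%, 7.72% and 6.28% in Fra1hep mutants. In Fra2hep it was 5.05%, 5.44% and 6.2% in controls and 6.99%, 5.92% and 6.41% in mutants. Both pairs of groups overlapped. In Fra2hep the mean share was 5.56% ± 0.587 (SD, n = 3) in controls and 6.44% ± 0.532 in mutants. The share is of all counts, those of albumin included, and its relation to the hepatocyte marker sum was not tested.

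Per kilobase of exon, fetuin-A (Ahsg), a liver-made inhibitor of calcification, had the highest level, at 4632 CPM per kb on average over the 12 livers. It was followed by the fibrinogen chains Fga (2696) and Fgg (2640) and by Fgb (1869), then by C3 (1660), the protein all complement pathways meet at, by vitronectin (Vtn, 1290), plasminogen (Plg, 791) and kininogen (Kng1, 723). At the low end, C2 stood at 12.6 and factor B (Cfb) at 3.98 CPM per kb. Among neighbours in this order, only Ahsg and Fga, and C2 and Cfb, had ranges over the 12 livers that did not overlap. C2 and Cfb lie 85 bases apart on chromosome 17 and both overlap Gm20547 on the same strand, so their counts are uncertain.

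**Figure D1:**
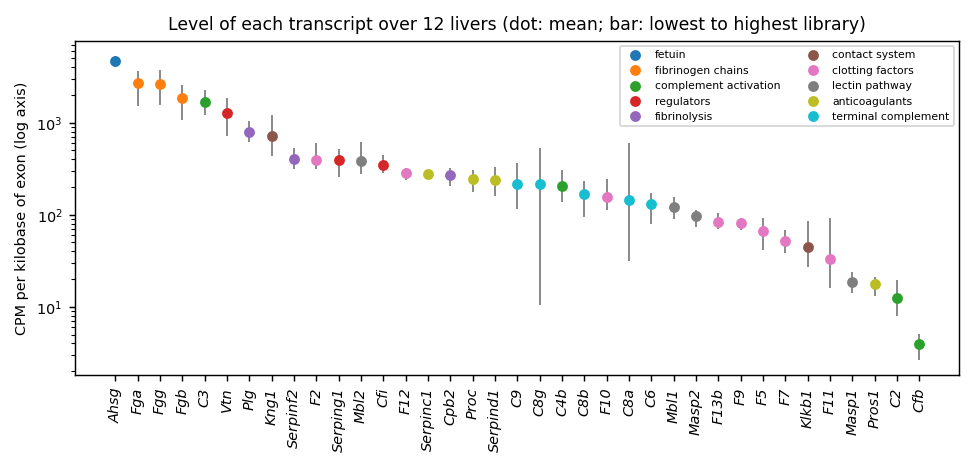
Mean level of each of the 37 transcripts over 12 livers in CPM per kilobase of exon on a log axis, with a bar from the lowest to the highest library. Levels run from 4632 for Ahsg to 3.98 for Cfb, and the longest bars are those of C8g, C8a and F11.

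In Fra1hep mutants against controls, 2 of 37 passed edgeR's quasi-likelihood test at a Benjamini-Hochberg adjusted p under 0.05, and both, F7 and F10, were lower. This is 5.41% of the genes beside 3.84% of all genes tested, in either direction; by direction it is 2 lower beside 0.938% of all genes and 0 higher beside 2.9%. At an unadjusted p under 0.05, 1 was higher and 7 lower, beside 16.3% of all genes, by edgeR. DESeq2 called 6 of 37 (16.2%), with F2, F7, F10, F12, C8g and Serping1 lower and 0 higher, beside 7.25% of all genes (4.82% higher and 2.44% lower). How far the members' share stands from that of all genes thus differs between the tools, and it was not tested. The members were chosen with earlier results of these data known. Their called shares are therefore descriptions and cannot be weighed against those of all genes. In Fra2hep mutants 0 of 37 passed edgeR's test beside 1.07% of all genes (0.845% higher and 0.22% lower), with 5 higher and 1 lower at an unadjusted p under 0.05 beside 11.5% of all genes; DESeq2 called 2 (5.41%), with C6 higher and Serpinc1 lower, beside 3.18% of all genes (2.24% higher and 0.945% lower). For the mean of both strains' mutant effects, which uses the 6 mutants and 6 controls, 4 of 37 passed (10.8% beside 6.24%): F7, F10 and C8g were lower, beside 1.9% of all genes, and C6 was higher, beside 4.33%. At an unadjusted p under 0.05, 3 were higher and 8 lower in the mean, beside 19.4% of all genes, and DESeq2 called 9 (24.3%), 1 higher and 8 lower, beside 9.58% of all genes (5.95% higher and 3.63% lower).

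The median log2 fold change of the 37 was -0.13 in Fra1hep (0.01 over all genes) and 0.01 in Fra2hep (-0.01 over all genes). In Fra1hep 26 of 37 values were negative, and in Fra2hep 18 of 37 were. With library totals alone as the scale, the Fra1hep median was 0.02 and that of all genes went from 0.01 to 0.15. The difference of the effects, Fra2hep minus Fra1hep, had a median of 0.19, and 0 of 37 passed either edgeR or DESeq2, beside 0.0355% of all genes with edgeR; 2 were higher at an unadjusted p under 0.05 beside 6.32% of all genes.

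The intervals show how large a change these data still allow. The 95% interval of the fold change lay within 2-fold in either direction for 31 of 37 genes in Fra1hep and for 31 of 37 in Fra2hep, beside 64.6% and 67.9% of all genes. It lay within 1.5-fold for 12 and 16 of them, beside 37.9% and 39.2% of all genes, so that for most members a change of that size is still allowed. The widest intervals belong to C8a, C8g and F11, while Serpinc1, F12 and F9 were measured closely. The p-values rest on a spread estimated for each gene within groups over all 12 libraries, with 3 mice to a group. The libraries of each strain thus also bear on the tests of the other strain.

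**Figure D2:**
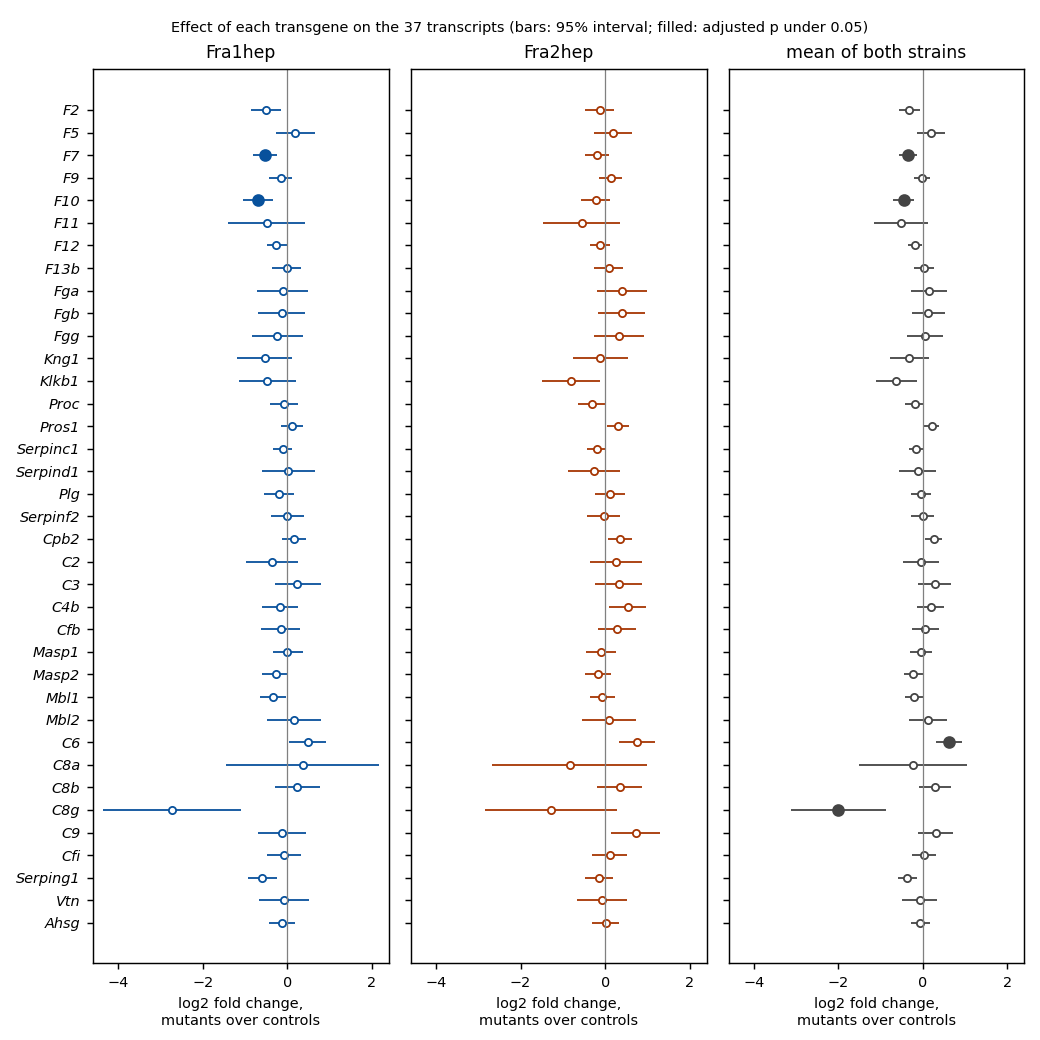
Log2 fold change of each of the 37 transcripts, mutants over controls, in Fra1hep, in Fra2hep and as the mean of both effects, with 95% intervals from the edgeR fit. Filled points passed at an adjusted p under 0.05: F7 and F10 in Fra1hep, none in Fra2hep, and F7, F10, C8g and C6 in the mean.

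The promoters of the 4 genes that passed a test, and that of Fgb, are shown because AP-1 is the factor that the transgenes supply. RefSeq (GRCm38.p6) gave windows of 250 bases before to 50 after the start for 28 of the 37 genes, 29 windows in all since C8g has 2. Capitals mark matches on either strand to the AP-1 motif TGANTCA, the C/EBP motif TTGCNNAA and the HNF1 motif with at most 2 mismatches. Each sequence runs 5′ to 3′ along the gene.
F7 (chr8:13025784-13026083, plus strand): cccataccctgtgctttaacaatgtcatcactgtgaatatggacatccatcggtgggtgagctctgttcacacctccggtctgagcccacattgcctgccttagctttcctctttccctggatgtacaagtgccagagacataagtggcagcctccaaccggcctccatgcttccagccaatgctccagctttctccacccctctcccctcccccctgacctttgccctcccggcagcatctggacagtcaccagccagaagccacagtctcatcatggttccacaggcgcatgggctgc
F10 (chr8:13037058-13037357, plus strand): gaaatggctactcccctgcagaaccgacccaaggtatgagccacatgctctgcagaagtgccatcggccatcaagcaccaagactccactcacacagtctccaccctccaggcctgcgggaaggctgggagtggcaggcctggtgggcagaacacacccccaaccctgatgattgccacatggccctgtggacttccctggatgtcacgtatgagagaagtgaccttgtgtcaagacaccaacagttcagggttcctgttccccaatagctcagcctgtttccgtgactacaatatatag
C6 (chr15:4726960-4727259, plus strand): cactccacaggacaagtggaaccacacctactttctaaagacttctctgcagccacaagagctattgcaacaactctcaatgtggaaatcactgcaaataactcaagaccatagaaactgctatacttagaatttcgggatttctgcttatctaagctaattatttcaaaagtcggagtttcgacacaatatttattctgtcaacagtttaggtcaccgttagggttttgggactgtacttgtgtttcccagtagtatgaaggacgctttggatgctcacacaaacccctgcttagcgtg
C8g, start 1 (chr2:25501670-25501969, minus strand): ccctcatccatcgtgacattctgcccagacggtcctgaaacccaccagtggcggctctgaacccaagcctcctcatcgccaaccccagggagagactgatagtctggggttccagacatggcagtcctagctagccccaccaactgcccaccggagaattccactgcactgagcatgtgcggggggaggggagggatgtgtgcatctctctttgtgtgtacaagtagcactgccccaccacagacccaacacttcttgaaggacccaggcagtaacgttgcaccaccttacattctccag
C8g, start 2 (chr2:25500457-25500756, minus strand): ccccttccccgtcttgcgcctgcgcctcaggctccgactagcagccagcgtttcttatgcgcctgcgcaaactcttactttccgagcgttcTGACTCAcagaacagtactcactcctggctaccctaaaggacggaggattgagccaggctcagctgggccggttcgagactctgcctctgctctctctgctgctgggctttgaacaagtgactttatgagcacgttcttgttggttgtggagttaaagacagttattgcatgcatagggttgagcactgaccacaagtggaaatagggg
Fgb (chr3:83049814-83050113, minus strand): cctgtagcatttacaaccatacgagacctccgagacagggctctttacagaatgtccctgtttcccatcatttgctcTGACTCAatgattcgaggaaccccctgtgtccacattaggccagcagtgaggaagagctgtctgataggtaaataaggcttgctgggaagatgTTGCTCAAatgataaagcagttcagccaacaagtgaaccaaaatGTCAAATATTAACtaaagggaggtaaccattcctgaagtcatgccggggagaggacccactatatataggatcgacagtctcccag

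The AP-1 letters TGANTCA were in 3 of 29 windows (10.3%), those of C8g, F2 and Fgb, beside 7.81% of 32851 windows of all genes. In C8g they lie 159 bases before the second start, which is inside the annotated gene, and in Fgb 173 bases before the start. The F7, F10 and C6 windows held no match to any of the 3 motifs, which says only that these letters are not in these windows. The C/EBP letters TTGCNNAA were in 10 of 29 windows (34.5% beside 10.8%) and the HNF1 motif in 4 of 29 (13.8% beside 1.36%). The Fgb window is shown since it held all 3, and the HNF1 matches of the others were in F13b, F2 and Fga. Both strands were searched, and the matches of different motifs in the Fgb window do not overlap. A match is a description of letters and not of binding.

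Factor VII (F7), the protease that starts clotting with tissue factor, stood at 128, 103 and 107 CPM in Fra1hep controls and at 71.9, 74.3 and 86.7 in mutants. The Fra2hep levels were 100, 102 and 110 CPM in controls and 103, 76.7 and 94.9 in mutants. The Fra1hep groups do not overlap and the Fra2hep groups do. In Fra1hep the log2 fold change was -0.53 ± 0.13 (SE), a change of -30.9%, with an adjusted p of 0.0489 by edgeR, and in Fra2hep -0.19 ± 0.13 (adjusted p = 0.666). The mean of both effects was -0.36 ± 0.09 (adjusted p = 0.0441 by edgeR). The Fra1hep call is close to the threshold: the adjusted p ran from 0.0324 to 0.162 as each library was left out, and it stayed under 0.05 only without Fra1hep mutant 3 (0.0476), Fra2hep mutant 1 (0.0488) or Fra2hep mutant 2 (0.0324). The mean effect stayed under 0.05 only without Fra1hep mutant 3 (0.0388) or Fra2hep mutant 1 (0.0384), and was at most 0.0971.

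Factor X (F10), the protease that turns prothrombin into thrombin, lies 1498 bases downstream of F7 on chromosome 8, with 0 protein-coding genes between them. It stood at 663, 482 and 435 CPM in Fra1hep controls and at 312, 343 and 322 in mutants. In Fra2hep it stood at 453, 471 and 455 CPM in controls and at 429, 341 and 412 in mutants. The mutants lay below the controls in both strains, with the 3 Fra1hep mutants close together. The log2 fold change was -0.70 ± 0.16 (adjusted p = 0.0306 by edgeR) in Fra1hep, -0.22 ± 0.16 (adjusted p = 0.661) in Fra2hep and -0.46 ± 0.11 (adjusted p = 0.0311) for the mean. Per length, the ratio of F10 to F7 was between 2.52 and 3.54 in the 12 libraries, so that the levels of these neighbours ran in similar proportion. The F10 call in Fra1hep did not hold without any 1 of Fra1hep control 1 (adjusted p = 0.0924), control 2 (0.0587), mutant 1 (0.101), mutant 2 (0.059) or mutant 3 (0.0836), nor without Fra2hep mutant 3 (0.0514). Its mean effect did not hold without Fra1hep mutant 1 (0.0687), Fra1hep mutant 3 (0.0631), Fra2hep control 2 (0.0643), control 3 (0.0592), Fra2hep mutant 2 (0.079) or mutant 3 (0.062). The differences between strains, 0.35 for F7 (adjusted p = 0.829) and 0.47 for F10 (adjusted p = 0.796), did not pass the test.

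**Figure D3:**
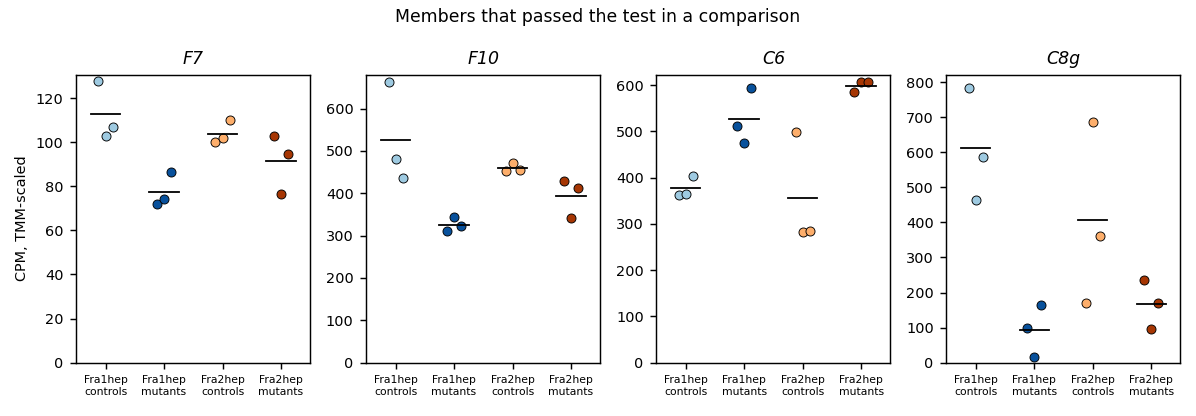
CPM of F7, F10, C6 and C8g in each of 12 livers (points; lines: group mean; n = 3), with axes that start at 0. F7 and F10 are lower in Fra1hep mutants, C6 is higher in both mutant groups, and C8g is lower in Fra1hep mutants with a wide spread in the Fra2hep controls.

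The other clotting factors did not pass edgeR's test, while DESeq2 called F2 and F12 lower in Fra1hep and in the mean. Prothrombin (F2), the precursor of thrombin, stood at 2779, 1999 and 2200 CPM in Fra1hep controls and at 1446, 1844 and 1617 in mutants, with no overlap. Its log2 fold change was -0.51 ± 0.16 (adjusted p = 0.12 by edgeR) in Fra1hep and -0.13 ± 0.16 (adjusted p = 0.834) in Fra2hep, where the mutants stood at 1648, 1557 and 1606 CPM and the controls at 1596, 1622 and 2039. F2, F7, F10, F11 and F12 were 5 of 10 genes whose Fra1hep groups did not overlap with the mutants lower, and 2 did so with mutants higher; over all genes 9.98% were lower and 11.7% higher without overlap. In Fra2hep 4 were higher and 5 lower without overlap, beside 9.31% and 8.17% of all genes. Factor V (F5), factor IX (F9), F12 and the factor XIII B chain (F13b) had values between -0.26 and 0.19 in Fra1hep.

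Factor XI (F11), an amplifier of thrombin formation, was picked out after its values were seen. It stood at 50.2, 73.1 and 48.5 CPM in Fra1hep controls, 43.2, 36.3 and 42.9 in Fra1hep mutants, 204, 48.5 and 98.8 in Fra2hep controls and 106, 67.8 and 65.6 in Fra2hep mutants. The highest value is that of Fra2hep control 1, and the spread over 6 controls was 69.6% (CV) against 9.39% for F7. Its Fra2hep log2 fold change was -0.55 ± 0.41 and went to 0.12 without that library.

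The 3 fibrinogen chains ran together. Fga, the alpha chain, stood at 10653, 7186 and 9029 CPM in Fra1hep controls and at 5706, 11095 and 8077 in mutants. Fra2hep controls had 4555, 6610 and 8522 CPM and their mutants 9305, 7695 and 8962 in mutants. The groups overlapped in both strains, and 0 of 3 chains passed edgeR or DESeq2 in either strain, in the mean or in the difference, with 0 at an unadjusted p under 0.05. Over all genes edgeR called 3.84% in Fra1hep and 1.07% in Fra2hep, so 0 of 3 says little about these chains. The log2 fold changes were -0.24 to -0.11 in Fra1hep and 0.33 to 0.40 in Fra2hep. Per length, the ratio of Fga to Fgg was 0.899 to 1.13 and that of Fgb to Fgg 0.669 to 0.825 over the 12 libraries, although Fga itself ran from 4555 to 11095 CPM. The 3 genes lie next to each other on chromosome 3.

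The contact system starts clotting on negatively charged surfaces and makes bradykinin. Kininogen (Kng1), the source of bradykinin, stood at 3902, 2464 and 1979 CPM in Fra1hep controls and at 2173, 2200 and 1420 in mutants, with overlap. Fra2hep controls had 1644, 2837 and 2823 CPM and mutants 2788, 2057 and 1897. Its log2 fold changes were -0.53 (adjusted p = 0.414 by edgeR) and -0.12 (adjusted p = 0.935) in Fra1hep and Fra2hep. Plasma prekallikrein (Klkb1) stood at 276, 322 and 202 CPM in Fra2hep controls and at 143, 158 and 158 in mutants, without overlap, and its log2 fold change of -0.80 ± 0.31 did not pass (adjusted p = 0.342). Counts of Kng1 may share reads with its paralog Kng2, and Klkb1 overlaps Gm45753 on the same strand.

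Antithrombin (Serpinc1), the main plasma inhibitor of thrombin and factor Xa, was the steadiest gene of the set, with a CV of 3.5% over the 6 controls. It stood at 2643, 2409 and 2476 CPM in Fra1hep controls and at 2294, 2345 and 2323 in mutants. Fra2hep controls had 2435, 2538 and 2441 CPM and their mutants 2218, 2077 and 2140 in mutants. The mutants lay below the controls in both strains by a small amount, -7.52% in Fra1hep and -13.2% in Fra2hep, and neither passed edgeR's test (adjusted p = 0.659 and 0.523). Protein S (Pros1), the cofactor of protein C, stood at 65.2, 53.8 and 64.8 CPM in Fra2hep controls and at 78.4, 77.1 and 72.8 in mutants, without overlap (log2 fold change 0.31 ± 0.12, adjusted p = 0.326 by edgeR). Protein C (Proc) and heparin cofactor II (Serpind1) had values of -0.31 to 0.02 over both strains and did not pass.

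In fibrinolysis, plasminogen (Plg), the precursor of the fibrin-dissolving protease plasmin, stood at 3870, 2913 and 2991 CPM in Fra1hep controls and at 2851, 2604 and 3066 in mutants, with overlap. Its levels in Fra2hep were 2717, 2271 and 3160 CPM in controls and 3067, 2857 and 2857 in mutants, also with overlap. Carboxypeptidase B2 (Cpb2), which slows clot lysis, stood at 335, 389 and 424 CPM in Fra2hep controls and at 503, 473 and 481 in mutants. These Fra2hep groups did not overlap, and the log2 fold change of 0.34 ± 0.13 did not pass (adjusted p = 0.318 by edgeR). Alpha-2-antiplasmin (Serpinf2) had values of 0.00 and -0.03 in Fra1hep and Fra2hep.

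Of the terminal complement genes, C8g and C8a had the widest ranges of the 37 members over the 12 livers, at 50.2-fold and 19-fold. The ranges of C6 (2.15-fold), C8b (2.47-fold) and C9 (3.17-fold) were smaller than that of F11 (5.63-fold). C6, which binds C5b as the pore begins to form, stood at 363, 364 and 403 CPM in Fra1hep controls and at 512, 474 and 595 in mutants. In Fra2hep it stood at 499, 283 and 284 CPM in controls and at 585, 606 and 607 in mutants. The mutants lay above the controls in both strains, and Fra2hep control 1 stood apart from its group. The log2 fold change was 0.49 ± 0.20 (adjusted p = 0.248 by edgeR) in Fra1hep, 0.76 ± 0.20 (adjusted p = 0.122) in Fra2hep, and 0.62 ± 0.14 (adjusted p = 0.0232) for the mean, a change of 53.7%. Without Fra2hep control 1, C6 passed in Fra2hep (1.08, adjusted p = 0.00478) and in Fra1hep (adjusted p = 0.04). The mean effect did not pass without any 1 of Fra1hep control 1 (0.0665), control 2 (0.0639), Fra1hep mutant 3 (0.0601), Fra2hep control 2 (0.0518), control 3 (0.0541), Fra2hep mutant 2 (0.0536) or mutant 3 (0.0546).

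C8 is a complex of alpha, beta and gamma chains; the alpha and beta chains insert into the membrane, and the gamma chain is a lipocalin. The gamma chain gene C8g (GRCm38 chr2:25498651-25501719, minus strand) stood at 784, 465 and 586 CPM in Fra1hep controls and at 98.4, 15.6 and 163 in mutants. Fra2hep controls had 171, 687 and 361 CPM and their mutants 236, 96.2 and 170 in mutants. The Fra1hep groups are far apart and the Fra2hep groups overlap, since control 1 is as low as the mutants. The log2 fold change was -2.73 ± 0.74 (95% interval -4.37 to -1.09, adjusted p = 0.0755 by edgeR) in Fra1hep and -1.28 ± 0.71 (adjusted p = 0.552) in Fra2hep. The mean effect was -2.0 ± 0.51 (adjusted p = 0.0436), a change of -75.1%, and the difference between strains was 1.45 ± 0.99 (adjusted p = 0.883). The mean effect passed only without Fra1hep mutant 2 (-1.75, adjusted p = 0.02), Fra1hep mutant 3 (-2.36, 0.0338) or Fra2hep control 1 (-2.19, 0.0333), and was between 0.0645 and 0.112 without any other library.

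C8g ran over a 50.2-fold range in the 12 livers, wider than any other member. It overlaps Fbxw5 on the other strand, which stood at 38.2 to 56.8 CPM in all 12 libraries with log2 fold changes of 0.08 (adjusted p = 0.823 by edgeR) and -0.04 (0.945). The level of C8g per length relative to C8b ran from 0.0587 to 4.92.

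C8a, the alpha chain, was also singled out after its values were seen. It stood at 294, 293 and 377 CPM in Fra1hep controls, 480, 237 and 521 in Fra1hep mutants, 2191, 115 and 282 in Fra2hep controls and 727, 335 and 382 in Fra2hep mutants. Fra2hep control 1 had by far the highest value and Fra2hep control 2 the lowest, and both are controls. The C8a to C8b ratio per length was 2.81 in Fra2hep control 1 and at most 0.866 in the other 11 livers. C8a's Fra2hep value of -0.84 ± 0.83 went to 1.28 (adjusted p = 0.319 by edgeR) without that library. C8b, the beta chain, lies 11130 bases from C8a and ran from 238 to 587 CPM.

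C9, which forms the wall of the pore, stood at 615, 296 and 398 CPM in Fra2hep controls and at 939, 531 and 688 in mutants, with overlap (log2 fold change 0.72 ± 0.26, adjusted p = 0.301 by edgeR). In Fra1hep it was at 587, 464 and 604 CPM in controls and at 480, 472 and 566 in mutants. The difference between strains, 0.84, had an unadjusted p of 0.0431 and an adjusted p of 0.766.

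**Figure D4:**
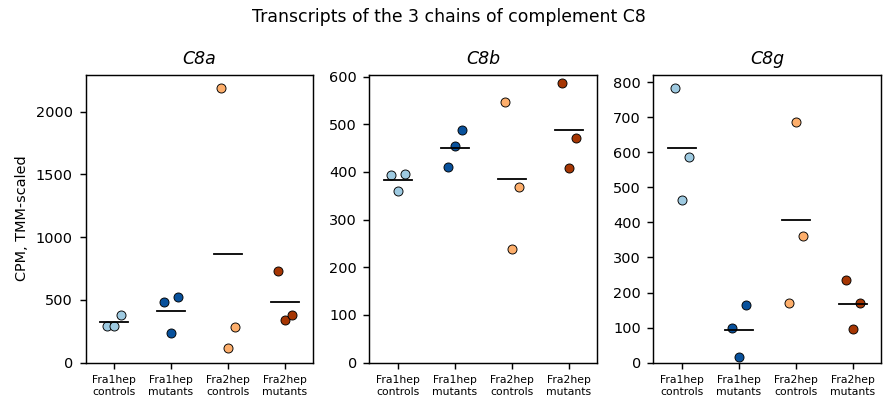
CPM of the 3 C8 chains in 12 livers (points; lines: group mean; n = 3), with axes that start at 0. C8g is low in the Fra1hep mutants and varies in the Fra2hep controls, and C8a is highest in Fra2hep control 1.

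Among the activation genes, C3 stood at 6226, 6351 and 10952 CPM in Fra2hep controls and at 10457, 9717 and 9115 in mutants, with overlap, and at 7137, 8714 and 6889 against 8486, 11694 and 6736 in Fra1hep. C4b, the complement C4 of mice, stood at 1346, 789 and 1157 CPM in Fra2hep controls and at 1753, 1673 and 1355 in mutants, without overlap. Its Fra2hep log2 fold change was 0.54 ± 0.20 (adjusted p = 0.308 by edgeR), and its difference from the Fra1hep value of -0.18 was 0.72 (unadjusted p = 0.0262, adjusted p = 0.704). C4b may share reads with its paralog C4a, which stood at 12.5 to 62.1 CPM. In the lectin pathway, Mbl2, a mannose-binding lectin, stood at 502, 438 and 300 CPM in Fra1hep controls and at 406, 672 and 308 in mutants. Fra2hep controls were at 326, 520 and 341 CPM and mutants at 434, 379 and 449. Of that pathway 0 of 4 genes passed edgeR's test or DESeq2 in either strain. By edgeR 3.84% of all genes passed in Fra1hep and 1.07% in Fra2hep. In Fra1hep 1 of the 4 was lower at an unadjusted p under 0.05, beside 16.3% of all genes. With 4 genes these counts say little about the pathway.

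C1 inhibitor (Serping1), which holds back both the contact system and the start of complement, stood at 1205, 1056 and 1076 CPM in Fra1hep controls and at 605, 821 and 791 in mutants. The groups did not overlap, and the log2 fold change of -0.59 ± 0.15 had an adjusted p of 0.0606 by edgeR. In Fra2hep it stood at 954, 877 and 956 CPM in controls and at 980, 720 and 822 in mutants, with a log2 fold change of -0.14 ± 0.15 (adjusted p = 0.8). Vitronectin (Vtn), which binds the forming pore, stood at 3433, 2895 and 2972 CPM against 2031, 3808 and 2947 in Fra1hep, with overlap, and at 2017, 2571 and 2253 against 3003, 1440 and 2047 in Fra2hep. Fetuin-A (Ahsg) stood at 11691, 10815 and 10217 CPM in Fra1hep controls and at 9355, 11655 and 8960 in mutants. Fra2hep controls had 9612, 9307 and 10672 CPM and mutants 10651, 9215 and 9968. The Ahsg log2 fold changes were -0.13 in Fra1hep and 0.01 in Fra2hep, neither of which passed.

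**Figure D5:**
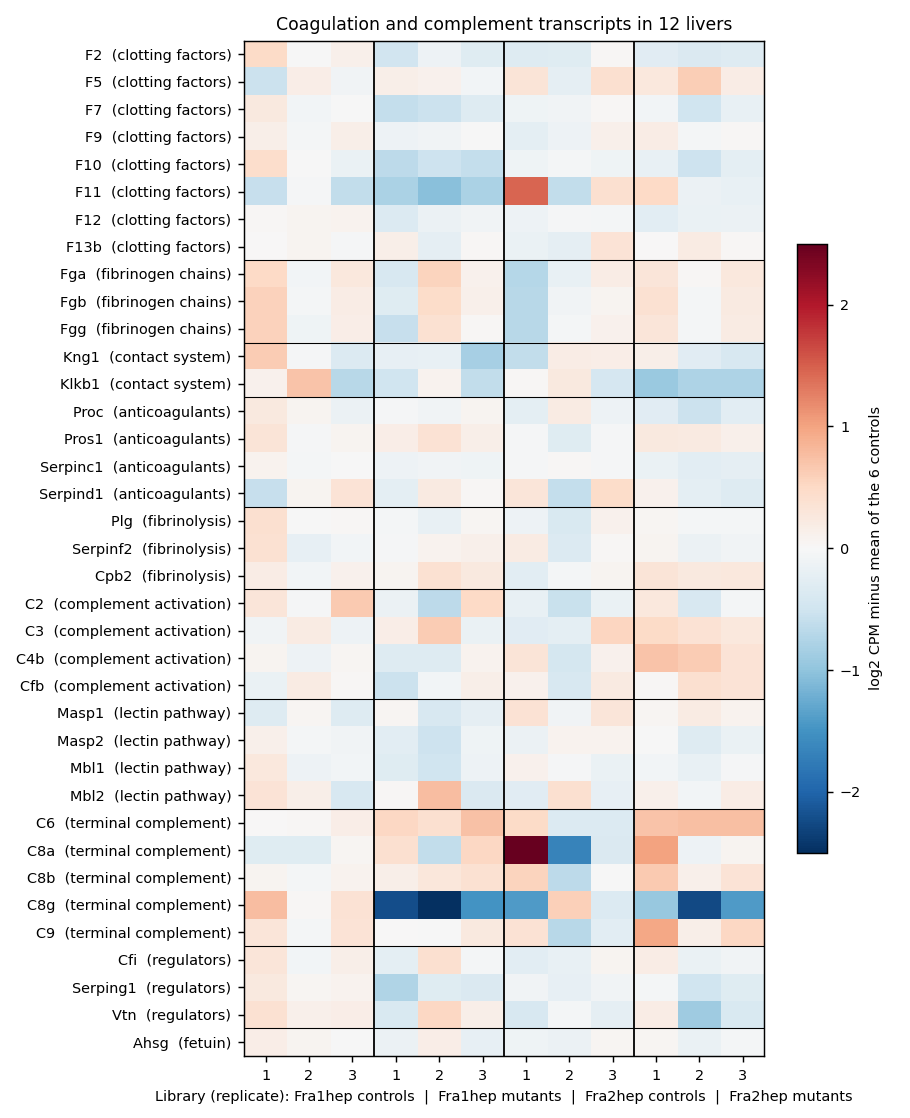
Each of the 37 transcripts (rows, by role) in 12 livers (columns), as log2 CPM minus the mean of the 6 controls; red is higher and blue is lower. Among the strongest colours are C8g in the Fra1hep mutants, in Fra2hep mutants 2 and 3 and in Fra2hep control 1, C8a in Fra2hep controls 1 and 2, and F11 in Fra2hep control 1.

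Other genes of clotting and fibrinolysis were taken from a list of 41, of which 38 were tested. The list was chosen with earlier results of these data known. Its called share is therefore a description and cannot be weighed against that of all genes. By edgeR 4 were higher and 1 lower in Fra1hep (13.2% beside 3.84% of all genes), 3 higher and 0 lower in Fra2hep (7.89% beside 1.07%), and 6 higher and 1 lower in the mean (18.4% beside 6.24%). Histidine-rich glycoprotein (Hrg), a plasma protein that binds heparin and plasminogen and lies in the same chromosome 16 region as Ahsg and Kng1, stood at 1000, 851 and 943 CPM in Fra1hep controls and at 1870, 1346 and 1581 in mutants. In Fra2hep it stood at 963, 975 and 986 CPM in controls and at 1865, 1584 and 1676 in mutants, with no overlap in either strain. The log2 fold change was 0.78 ± 0.14 (adjusted p = 0.0098 by edgeR) in Fra1hep and 0.81 ± 0.14 (adjusted p = 0.0197) in Fra2hep. Leaving out Fra1hep control 2 took the Fra1hep adjusted p to 0.0529, and in Fra2hep leaving out any 1 of its own 6 libraries took it to between 0.052 and 0.0796, while the mean, 0.79, passed without each library in turn. Over all 18 alternative fits the Hrg call held in 16 in Fra1hep, with an adjusted p of at most 0.0533 by edgeR or DESeq2, and in 11 in Fra2hep.

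HGF activator (Hgfac), a protease resembling factor XII, was lower, at 428, 386 and 359 CPM in Fra1hep controls against 263, 178 and 238 in mutants and at 299, 419 and 385 in Fra2hep controls against 241, 208 and 231 in mutants. Its mean effect was -0.74 ± 0.12 (adjusted p = 0.00317 by edgeR), and in Fra1hep it was -0.79 ± 0.17 (adjusted p = 0.0228). The Fra1hep call held in 13 of 18 alternative fits. The losses include those without Fra1hep control 1 (0.0959), control 2 (0.0677), mutant 2 (0.0629) or mutant 3 (0.0549). Vkorc1l1, a vitamin K reductase, rose in the mean effect by 0.60 (adjusted p = 0.0073), as did the thrombin receptor F2r by 1.27 (adjusted p = 0.0103).

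The other 3 genes that passed take part in proteolysis at cell surfaces. Anxa2 and S100a10, which bind plasminogen activators and plasminogen, rose by 3.15 ± 0.37 (adjusted p = 7.46e-04 by edgeR) and 2.08 ± 0.26 in Fra1hep, and S100a10 rose by 1.51 ± 0.26 in Fra2hep. The matriptase gene St14 rose by 5.67 ± 0.71 in Fra1hep and by 3.53 ± 0.59 in Fra2hep, from levels near the floor. It stood at 0.261, 0.59 and 0.323 CPM (4, 12 and 6 counts) in Fra1hep controls and at 16.9, 10.5 and 35 CPM in mutants. Fra2hep controls had 3.31, 2.01 and 0.486 CPM (60, 36 and 9 counts) and mutants 29.5, 20.9 and 16.8 CPM. The Fra2hep call of S100a10 (adjusted p = 0.0183 by edgeR) was lost without Fra2hep control 3 (0.0867), mutant 2 (0.0656) or mutant 3 (0.0743) and with the replicate block (0.0509). That of St14 (adjusted p = 0.0183) was lost without Fra2hep control 2 (0.0893), mutant 1 (0.0531) or mutant 2 (0.06) and without the filter (0.0788).

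Of a list of 37 other complement genes, 31 were tested and 0 passed edgeR or DESeq2 in any of the 5 comparisons. In Fra1hep 1 was higher and 2 lower at an unadjusted p under 0.05 by edgeR, beside 16.3% of all genes. Of 23 liver regulators of these genes, such as Hnf4a and Cebpa, 0 passed edgeR in any comparison. In Fra1hep 2 of them were higher and 1 lower at an unadjusted p under 0.05, beside the same 16.3%. DESeq2 called Onecut2 higher in Fra2hep and in the mean, beside 3.18% and 9.58% of all genes, and Creb3l3 in the difference. Over all genes edgeR called 3.84% in Fra1hep, 1.07% in Fra2hep and 6.24% in the mean. In lists this short, 0 calls lie near these shares, and the gap was not tested. The acute phase protein haptoglobin (Hp), no member of the set, fell in Fra1hep by 1.67 ± 0.29 on the log2 scale (adjusted p = 0.00718).

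The control groups of the 2 strains, which come from separate litters, were also compared. Here 0 of 37 passed edgeR or DESeq2, beside 0% of all genes with edgeR, and 2 were higher and 2 lower at an unadjusted p under 0.05, beside 5.35% of all genes. In this comparison 5 members, F12, Pros1, C2, Serping1 and Vtn, were lower in Fra2hep controls without overlap, beside 4.82% of all genes, and 0 were higher, beside 5.28%.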

How the data were processed

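Liver polyadenylated RNA of 12 mice was sequenced from stranded libraries made with 8 cycles of PCR, per the labels' protocols. The authors deposited raw counts, whole numbers for each gene and library. The submitters' processing notes name DESeq2 1.22.2, bedtools 2.27.1, RSEM and STAR 2.6.1a, with GRCm38 (mm10) as the build. Not given in the sources used here are the role of each tool, the gene annotation, the use of strand and the rule for reads with several matches, so overlapping genes and paralogs are uncertain. Columns were matched to samples by name, and the titles gave the groups. Replicate pairs differed by more than sampling noise. The labels do not say whether replicate numbers pair mice, so the numbers were not used as pairs in the main fit. The correlation of deviations from group means for equal numbers was -0.07 to 0.05 in Fra1hep and -0.12 to 0.06 in Fra2hep. With 3 mice per group this cannot exclude pairing.

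Counts were analysed in R 4.3.3 with edgeR 4.0.16: filterByExpr, TMM factors, a robust quasi-likelihood fit of 4 group means over 12 libraries, and two-sided tests of 5 contrasts with Benjamini-Hochberg adjustment over 14076 genes at 0.05. Shared spread over 12 libraries was chosen because groups hold 3. DESeq2 1.42.0 was an alternative, as were other scalings, no filter, the strain's own libraries, the replicate block and each library left out. Levels per length use union exon length of GENCODE M21. The code was tested on simulated data.

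The members, lists and tests were chosen with earlier results of these data known. Members called in a comparison, the 5 with the smallest p in each strain and the highest of each role are given by library; F11 and C8a were added after their values were seen, as were Klkb1 and the ratios. The lowest count of a member in a library was 137. Counting intervals would cover counting error only, since PCR copies cannot be recognised.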

Additional observations from a re-analysis of the deposited data

How the results depend on the processing

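The calls on single members are close to the threshold and depend on the fit. In Fra1hep 2 members were called, beside 540 of 14076 genes. With library totals alone this was 1, beside 776 genes, and without a filter 1, beside 489 of 26764 (F10 in both). With the 6 libraries of the strain it was 0, beside 420 of 13508 genes, and with the replicate block 0, beside 466 of 14076. With DESeq2 it was 6, beside 1021 of 14076. In Fra2hep 0 were called, and DESeq2 called 2. In the mean effect 4 were called, against 2 without a filter and 9 with DESeq2, beside 878 of 14076, 758 of 26764 and 1348 of 14076 genes. Over all genes DESeq2 called 1021 in Fra1hep, 448 in Fra2hep, 1348 in the mean, 69 in the difference and 18 between controls, and the 6 libraries of the strain gave 90 in Fra2hep. Without a filter 9 genes were called in the difference and 3 between controls, and the replicate block gave 0 in the difference. With library totals alone the Fra1hep member median was 0.02, and the share of called genes that were higher went from 75.6% to 86.9% in Fra1hep and from 69.5% to 83.4% in the mean. Leaving out each library, members called ranged from 0 to 2 in Fra1hep, 0 to 1 in Fra2hep and 0 to 4 in the mean, and genes called from 267 to 582, 53 to 184 and 599 to 903, with 0 to 13 in the difference and 0 to 1 between controls. The cause of these shifts was not tested. Whether replicate numbers pair mice is not known. With the replicate block F7 and F10 had adjusted p of 0.0559 and 0.0525 by edgeR in Fra1hep. In the mean F7, F10 and C6 passed with the block (0.0478, 0.0478 and 0.0336 by edgeR) and C8g did not (0.067). Each member had at least 137 counts in each library, and each group had 3 livers.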
